A study of Mus musculus with 8 samples.

Results

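The endoplasmic reticulum folding and stress genes examined here were 47 genes chosen by name for their roles, from stress sensors and chaperones to the translocon and the degradation machinery. They were followed in goblet cells of C57Bl/6 mice, the cells that make the gut's mucus. Goblet cells were sorted from epithelium that had been released with EDTA. The sort kept cells that were positive for CK18 (cytokeratin) and for the lectin UEA-I, and negative for CD45 and CD24. Small intestine and colon gave 4 samples each, every one hybridised to its own Illumina expression array. All 8 samples shared strain and sort, and the labels name no treatment, allele or age. The labels do not say whether the samples came from separate animals, so p-values measure no more than how these samples vary, and that variation may be technical.

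Of the 47 genes, 41 had a named probe, with 59 probes in all among the 25697 of the array. Atf6, Dnajb11, Sdf2l1, Ero1a (listed as Ero1l), Ppib and Sec61g had none and were not analysed here. A probe was tested where its detection p, the chance of such a signal from a negative control probe, fell below 0.05 for 4 or more of the 8 arrays. That left 38 of the 47 genes and 52 of the 59 probes, from 9080 genes and 13618 probes tested in all. Derl3, a derlin of degradation, and Ssr1, the alpha subunit of the translocon-associated complex, were above background on 0 of 8 arrays. The only probe of Pdia6, a disulfide isomerase, was above background on 1 small-intestinal and 1 colon array. For 34 of the 38 tested genes, the probe was above background on all 8 arrays. The exceptions were Ern1, Ero1b and Sec61b, each below background on 1 colon array, and Derl1, which was above it on 3 small-intestinal arrays and 1 colon array.

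Secreted and membrane proteins enter the endoplasmic reticulum through the Sec61 channel, fold there with the help of chaperones and disulfide isomerases, and are returned to the cytosol for destruction when folding fails. Unfolded protein is sensed by IRE1, PERK and ATF6, which raise chaperone transcription, slow translation or both, a programme called the unfolded protein response. Goblet cells load this system heavily, because mucins are very large, disulfide-linked glycoproteins. IRE1 has an epithelial form, IRE1 beta, encoded by Ern2 and known in mice from the mucus-secreting cells of gut and airway.

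Many chaperone genes carry in their promoters the endoplasmic reticulum stress element, bound by ATF6 with the factor NF-Y. The sites found among the members are printed here, a choice made after their differences had been seen. The motif searched was CCAAT, then 9 bases of any kind, then CCACG, on both strands, in windows from 250 bases before to 50 after each annotated gene start (RefSeq, GRCm38.p6). Such windows were listed for 39 of the 47 members. The motif was present in 10 of these 39 genes, or 25.6%, against 37 of all 27025 genes with a window, or 0.137%. The members were chosen by name and include chaperone genes, the kind known for this element, so this contrast is a description and not a test. A match is a description of the letters and not evidence of binding. Each stretch below reads 5′ to 3′ on the gene's own strand with 15 bases on both sides of the motif, and the capitals mark the fixed letters of the motif, which read CGTGG and ATTGG where the motif lies on the opposite strand.
Hspa5 (chr2:34772010-34772058, plus strand): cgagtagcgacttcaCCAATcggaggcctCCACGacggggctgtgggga
Creld2 (chr15:88819505-88819553, plus strand): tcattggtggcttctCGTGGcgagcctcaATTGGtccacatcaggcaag
Calr (chr8:84847060-84847108, minus strand): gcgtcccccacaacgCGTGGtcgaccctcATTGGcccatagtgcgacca
Canx (chr11:50325785-50325833, minus strand): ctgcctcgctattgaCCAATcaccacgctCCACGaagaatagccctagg
Dnajc3 (chr14:118937812-118937860, plus strand): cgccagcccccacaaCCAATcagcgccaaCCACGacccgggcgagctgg
Ero1b (chr13:12565667-12565715, plus strand): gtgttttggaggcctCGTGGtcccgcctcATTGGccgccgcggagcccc
Hsp90b1, farther site (chr10:86705623-86705671, minus strand): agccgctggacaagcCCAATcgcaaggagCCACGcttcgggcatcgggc
Hsp90b1, nearer site (chr10:86705518-86705566, minus strand): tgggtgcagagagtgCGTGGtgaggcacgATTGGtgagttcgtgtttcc
Syvn1 (chr19:6046517-6046565, plus strand): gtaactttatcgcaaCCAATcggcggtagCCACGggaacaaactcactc
Derl3 (chr10:75893227-75893275, plus strand): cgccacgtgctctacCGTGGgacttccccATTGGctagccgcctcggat
Pdia6 (chr12:17266476-17266524, plus strand): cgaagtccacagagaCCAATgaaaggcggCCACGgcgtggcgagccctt

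The motif began between 44 bases (Syvn1) and 212 bases (Hsp90b1, farther site) before the gene start. All 8 tested members that carried it had a lower mean in colon than in small intestine, by -0.04 to -1.27 log2 with a median of -0.58, and 3 of the 8 (Hspa5, Creld2 and Calr) passed the test given below, all towards small intestine, where 9.30% of all tested genes were called. Of the 23 tested members with a window and no such motif, 12 had a lower mean in colon and 11 a higher one, with a median of -0.04, and 3 passed, Atf4 and P4hb towards small intestine and Pdia5 towards colon. The 7 tested members with no listed window had 5 lower and 2 higher means, with a median of -0.29, and Manf and Ern2 among them passed in opposite directions. A negative difference of any size was seen in 65.8% of all tested members and in 44.5% of all tested genes. The set with the motif was assembled with the values known, so this split is a description and not a test. Whether the motif has a part in the differences was not tested, and Atf6 itself had no probe. Outside the members, 27 genes carried the motif and 4 of them were tested (Alg12, Hnrnpa3, Pan2 and Spats2l). Among these 4, 1 was lower and 3 were higher in colon, and 0 passed. The shorter sequence CCACG, which is contained in the longer motif, was found in 79.5% of the members with a window and in 35.5% of all genes. TGACGTGG was found in 1 member (Txndc5), TTGCATCA in 1 (Herpud1) and TGACGTCA in 0, against 0.714%, 1.03% and 2.03% of all genes.

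Differences are given in log2 of quantile-normalized signal as colon minus small intestine, so a negative value means less signal in colon. Limma gave the adjusted p-values, over all 13618 tested probes with Benjamini-Hochberg correction, and a gene is called where this is below 0.05. Levels are compared between arrays for the same probe and not between probes. In bulk samples, a lower level from fewer cells of a type and from less RNA per cell cannot be told apart.

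Between the segments, the members shifted slightly towards small intestine, with the sensor Ern2 and the isomerase Pdia5 going clearly the other way. Of 38 tested members, 2 were called as higher in colon (Ern2 and Pdia5), 6 were called as higher in small intestine, and the other 30 failed the test. Among all tested genes, 13.1% were called in the colon direction and 9.30% in the small-intestinal one, 22.4% in all, against 8 of 38 members, or 21.1%. The members' total share of calls was thus near that of all genes. An unadjusted p below 0.05 was found for 15 of the 38, and for 34.7% of all tested genes. Their median difference was -0.22 log2, where that of all tested genes was 0.07. A negative difference of any size was seen in 25 of the 38, or 65.8%, and in 44.5% of all tested genes. The values of the segments did not overlap for 11 members, or 28.9%, against 26.2% of all tested genes. Colon was the higher for 5 of these members, against 15.7% of all tested genes, and small intestine for 6, against 10.4%. The median standard deviation between arrays of the same segment was 0.26 in small intestine and 0.23 in colon for the members, and 0.34 and 0.30 for all tested genes.

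**Figure D1:**
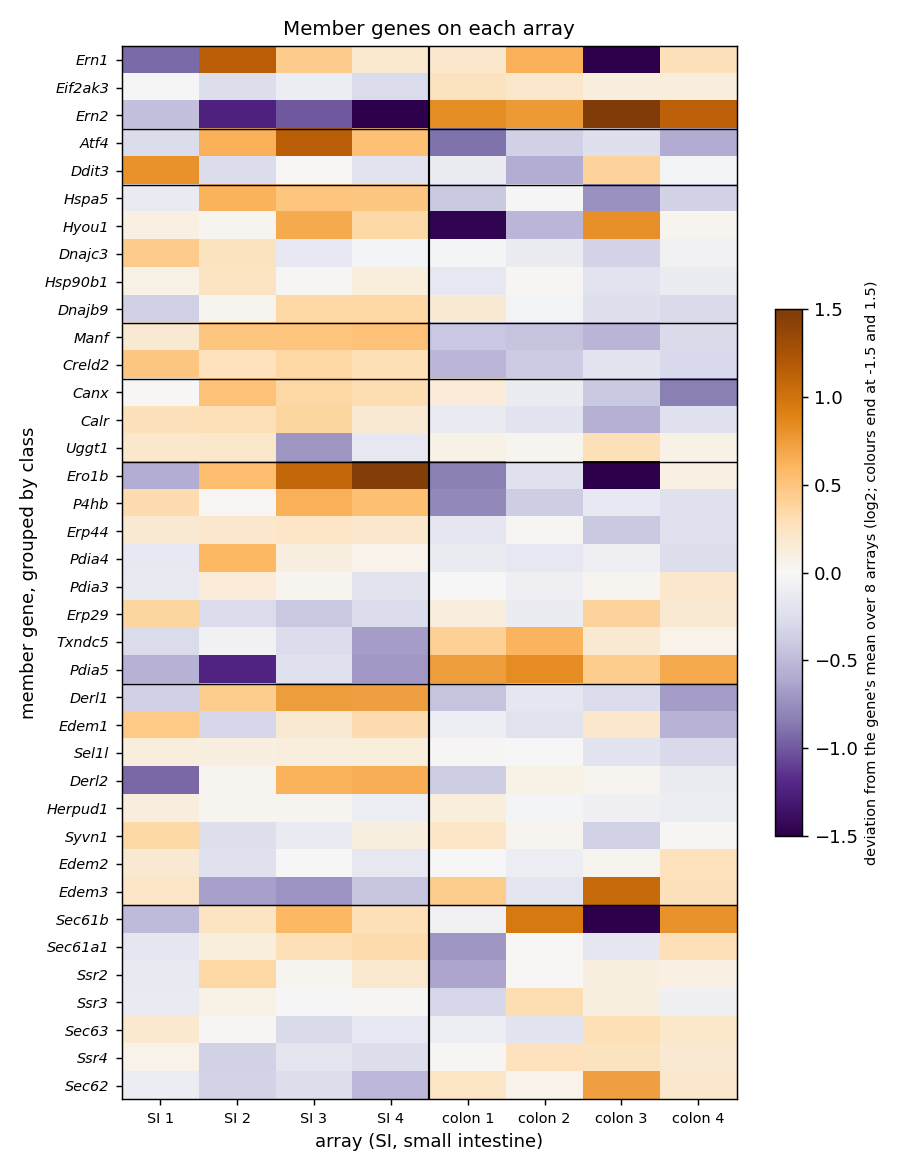
Heat map of the 38 tested member genes (rows, grouped by class in the order of the text) on the 4 small-intestinal and 4 colon arrays (columns), each cell giving the deviation from the gene's mean over 8 arrays in log2. Ern2 and Pdia5 are above their mean on every colon array, while Manf, Creld2 and Calr are above theirs on every small-intestinal array, and Ern1, Ero1b and Sec61b are lowest on colon array 3.

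**Figure D2:**
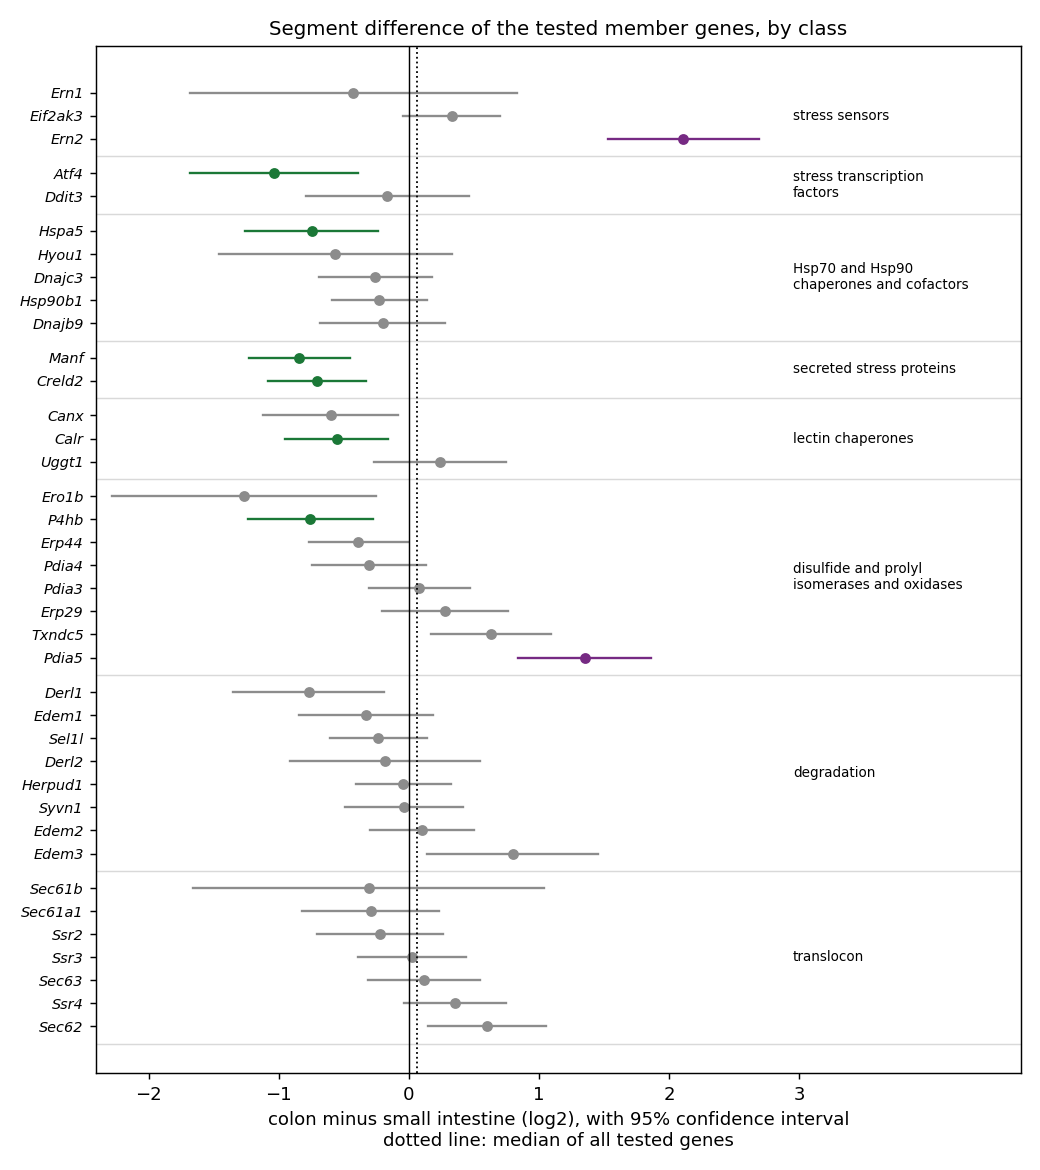
Difference between colon and small intestine for each tested member (point, log2) with its 95% confidence interval (line), grouped by class. Purple marks genes called higher in colon, green those called higher in small intestine and grey those not called, and the dotted line marks the median of all tested genes, 0.07.

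Among the stress sensors, Ern2 was much higher in colon, while Ern1 and Eif2ak3 did not pass. Ern2, the epithelial IRE1 beta, gave 9.76, 8.98, 9.22 and 8.69 log2 on the small-intestinal arrays 1 to 4 and 11.04, 10.98, 11.71 and 11.35 on the colon arrays 1 to 4. Every colon array lay above every small-intestinal one. The difference was 2.11 (SE 0.26, adjusted p = 0.00018), or 4.32-fold.

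Ern1, the IRE1 form found in most cells, varied widely within both segments. Its values were 6.16, 8.26, 7.56 and 7.28 in small intestine and 7.29, 7.74, 5.15 and 7.38 in colon. The segments overlapped, with the lowest value on colon array 3, where the probe was not above background. Its difference of -0.43 did not pass (adjusted p = 0.642). The 95% confidence interval ran from -1.68 to 0.83, so neither a fall nor a rise within it can be excluded.

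Eif2ak3, which encodes PERK, the kinase that slows translation under stress, was steady within each segment. It gave 9.35, 9.11, 9.26 and 9.09 in small intestine and 9.62, 9.56, 9.47 and 9.47 in colon. The colon values were all higher, but by 0.33 only, and the gene did not pass (SE 0.17, adjusted p = 0.195).

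Of the stress transcription factors, Atf4 was lower in colon and Ddit3 did not pass. Atf4, whose translation rises when PERK is active, gave 8.18, 9.08, 9.60 and 8.97 in small intestine and 7.55, 8.09, 8.22 and 7.85 in colon. The ranges touched, since small-intestinal array 1 lay just below colon array 3. The difference was -1.03 (SE 0.29, adjusted p = 0.0276). Ddit3, which encodes the death-associated factor CHOP, gave 10.17, 9.10, 9.37 and 9.16 in small intestine and 9.26, 8.78, 9.76 and 9.34 in colon. The ranges overlapped, and the gene did not pass (difference -0.16, adjusted p = 0.729). A further, dimmer probe of Ddit3 did not pass either (-0.35, adjusted p = 0.538).

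Other factors of the stress response, from a list of 25 genes that act beside these members, split between the segments. Of 22 tested, 4 were called with colon higher, 5 with small intestine higher, and 13 failed the test, and their median difference was 0.07. The called share was 40.9%, against 22.4% of all tested genes. Xbp1, whose messenger RNA is spliced by IRE1, did not pass, with means of 10.27 ± 0.26 for small intestine and 10.41 ± 0.11 for colon (SD over 4 arrays, adjusted p = 0.637). The probe signal does not separate the spliced from the unspliced form.

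The membrane-bound factors of the CREB3 family, which are cut in the Golgi as ATF6 is, diverged by member. Creb3l1 was higher in colon, at 9.84, 10.32, 10.81 and 10.23 against 7.47, 7.98, 7.98 and 7.38 in small intestine (difference 2.60, SE 0.25, adjusted p = 2.54e-05). Creb3l4 exceeded its small-intestinal level by 1.76 in colon (SE 0.22, adjusted p = 0.000175). Creb3l2 was lower in colon, at 6.49, 6.93, 7.92 and 7.36 against 9.22, 8.91, 10.03 and 10.06 (difference -2.38, SE 0.35, adjusted p = 0.000596). For Creb3l3, known from liver and gut for its role in fat metabolism, colon was lower by -4.39 (SE 0.43, adjusted p = 2.93e-05), and its probe was above background on 2 of 4 colon arrays. No values of the segments overlapped for these 4 genes. Creb3, the founding member, had overlapping values and did not pass (difference -0.02, SE 0.21, adjusted p = 0.955).

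Also from this list, Nupr1, a stress-induced chromatin protein, was higher in colon by 1.89 (SE 0.19). Sil1, the exchange factor that reloads the chaperone BiP, was higher there by 1.12 (SE 0.25, adjusted p = 0.00747). Lower in colon were Wfs1, a membrane protein of the reticulum, by -0.88 (SE 0.25), and Cebpb, a transcription factor, by -0.92 (SE 0.27).

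**Figure D3:**
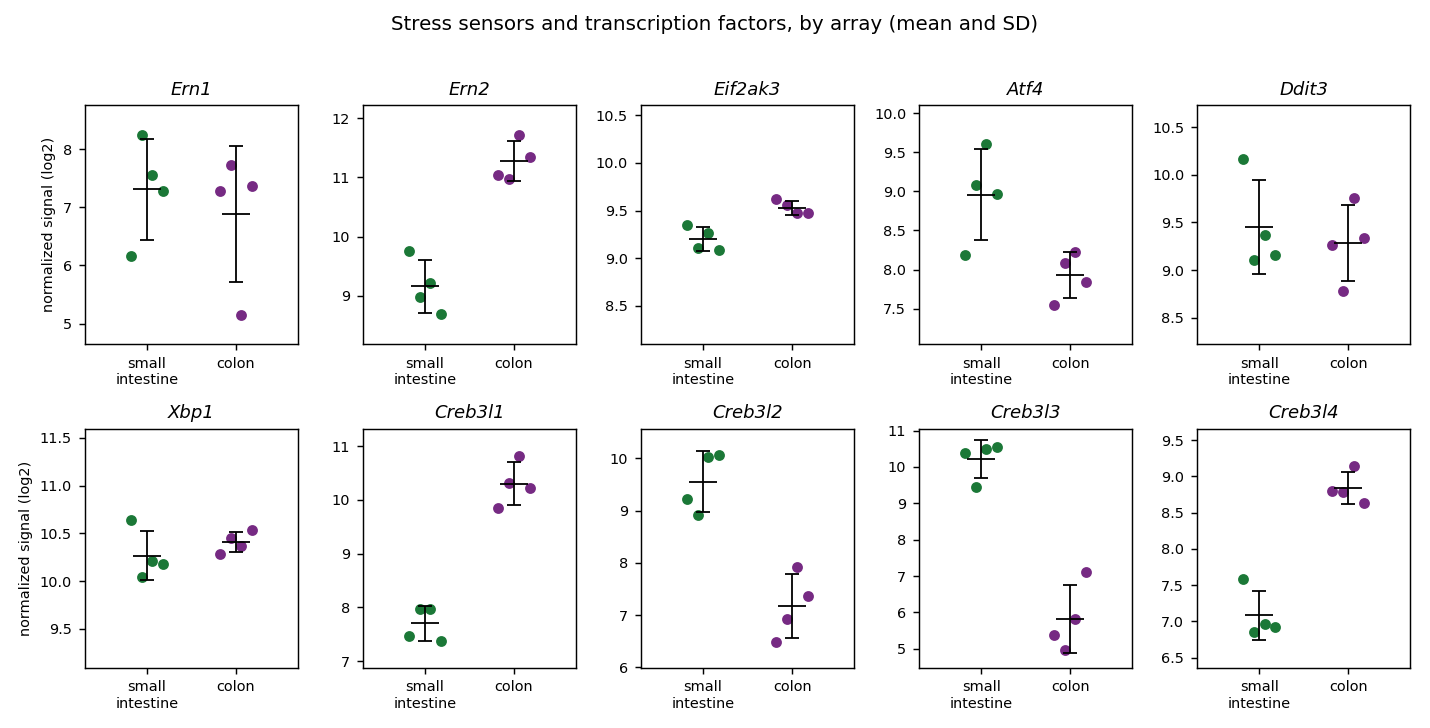
Normalized signal (log2) of 5 member sensors and factors (upper row) and of Xbp1 and the 4 called CREB3 family genes (lower row), with a point per array and the mean and SD of each segment in black. Each panel has its own axis range. Ern2, Creb3l1 and Creb3l4 are higher on all colon arrays, Creb3l2 and Creb3l3 on all small-intestinal arrays, and Ern1, Ddit3 and Xbp1 overlap.

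Of the chaperones of the Hsp70 and Hsp90 families and their cofactors, 5 of 7 were tested and all 5 had a lower mean in colon, by -0.20 to -0.75, but only Hspa5 passed. Hspa5 encodes BiP, the main Hsp70 of the reticulum. It gave 10.80, 11.56, 11.43 and 11.41 in small intestine and 10.52, 10.91, 10.20 and 10.59 in colon. Small-intestinal array 1 fell within the colon range, and the other 3 lay above it. The difference was -0.75 (SE 0.23, adjusted p = 0.0408).

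Hsp90b1, the Hsp90 form called GRP94, did not pass, with means of 11.99 ± 0.10 for small intestine and 11.76 ± 0.09 for colon (SD over 4 arrays, adjusted p = 0.377). Dnajc3 and Dnajb9, J-domain partners of BiP, had differences of -0.26 and -0.20. Hyou1, a large Hsp70 relative, ranged from 7.01 to 9.29 among the colon arrays alone, and its difference of -0.56 lay within that spread (SE 0.41, adjusted p = 0.365).

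The secreted stress proteins Manf and Creld2 were both lower in colon with little spread. Manf, a protein that binds BiP and is released under stress, gave 8.99, 9.32, 9.31 and 9.33 in small intestine and 8.40, 8.38, 8.28 and 8.53 in colon. Its groups were apart on every array (difference -0.84, SE 0.17, adjusted p = 0.00542). Creld2, an EGF-domain protein induced with the chaperones, gave 9.81, 9.58, 9.68 and 9.63 in small intestine and 8.80, 8.93, 9.13 and 9.03 in colon. These groups were apart as well (difference -0.70, SE 0.17, adjusted p = 0.0132), and its other probe gave -0.66 (SE 0.20, adjusted p = 0.0356).

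Among the lectin chaperones, which hold glycoproteins by their trimmed glucose, Calr was slightly lower in colon. Calr, encoding the soluble calreticulin, gave 11.52, 11.53, 11.63 and 11.42 in small intestine and 11.12, 11.05, 10.67 and 11.03 in colon. The values did not overlap, and the difference of -0.56 only just passed (SE 0.18, adjusted p = 0.0483). Canx, its membrane-bound relative calnexin, had a similar difference of -0.60 with overlap and did not pass (SE 0.24, adjusted p = 0.0982). Uggt1, the glucosyltransferase that sends unfolded glycoproteins back to these lectins, had means of 8.63 ± 0.43 for small intestine and 8.87 ± 0.12 for colon (adjusted p = 0.514).

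The disulfide isomerases and oxidases went in both directions. Of 11 genes, 8 were tested, with 1 call in each direction and 6 genes not passing. Pdia5, a less studied isomerase, gave 7.22, 6.55, 7.55 and 7.08 in small intestine and 8.52, 8.62, 8.22 and 8.45 in colon. Every colon value exceeded every small-intestinal one (difference 1.35, SE 0.23, adjusted p = 0.0016). The other 2 probes of Pdia5 gave 1.45 (SE 0.28) and 1.61 (SE 0.20), so all 3 probes passed with the same direction.

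The sequence upstream of Pdia5 is given because it was the member with the largest rise in colon for which a window was listed. It is the 250 bases before the gene start (GRCm38.p6, chr16:35490874-35491123, minus strand), with a single CCACG, on the opposite strand, in capitals.
Pdia5: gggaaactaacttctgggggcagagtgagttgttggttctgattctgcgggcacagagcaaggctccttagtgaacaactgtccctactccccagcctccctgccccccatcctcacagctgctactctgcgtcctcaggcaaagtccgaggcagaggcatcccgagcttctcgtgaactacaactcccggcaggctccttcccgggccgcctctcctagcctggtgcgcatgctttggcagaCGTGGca

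P4hb, the founding protein disulfide isomerase, was lower in colon. It gave 12.33, 12.01, 12.64 and 12.55 in small intestine and 11.23, 11.62, 11.86 and 11.79 in colon, without overlap (difference -0.76, SE 0.22, adjusted p = 0.03). Txndc5 and Erp44 kept their segments apart without passing. Txndc5, a thioredoxin-domain isomerase, gave 9.17, 9.39, 9.17 and 8.77 in small intestine and 9.86, 10.06, 9.59 and 9.50 in colon (difference 0.63, SE 0.21, adjusted p = 0.0541). Erp44, which retains proteins at the Golgi border by disulfide bonds, gave 12.14, 12.17, 12.19 and 12.16 in small intestine and 11.81, 11.99, 11.56 and 11.75 in colon (difference -0.39, SE 0.17, adjusted p = 0.141).

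Ero1b, an oxidase that recharges the isomerases, had the largest negative difference of all members, -1.27, but also a wide spread and did not pass (SE 0.46, adjusted p = 0.0745). Its values were 5.90, 7.04, 7.56 and 7.95 in small intestine and 5.66, 6.26, 4.91 and 6.56 in colon. Small-intestinal array 1 lay within the colon range. Pdia3, the partner of the lectin chaperones, did not pass (difference 0.08, 95% confidence interval -0.30 to 0.47), Pdia4 stood at -0.30 (adjusted p = 0.315) and Erp29, a chaperone of the family, at 0.28 (adjusted p = 0.416).

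A wider list of 20 isomerases and related enzymes that are no members had more calls towards colon than towards small intestine. Of 14 tested, 7 were called with colon higher, 2 with small intestine higher, and 5 failed the test, with a median difference of 0.68. Among all tested genes, 13.1% and 9.30% were called in these directions. Fkbp9, a prolyl isomerase, had a difference of 3.97 (SE 0.29, adjusted p = 4.51e-06), measured near the floor since 2 of 4 small-intestinal arrays were above background. Fkbp11 was higher in colon by 1.60 (SE 0.28) and Fkbp14 by 1.32 (SE 0.30). Agr2, an isomerase required in mice for mucin production in the intestine, had a difference of 1.33 (SE 0.21, adjusted p = 0.00107). It also stands among the goblet cell markers below. Ppic, a cyclophilin, was lower by -1.46 (SE 0.28, adjusted p = 0.0036) and Fkbp2 by -0.68 (SE 0.20, adjusted p = 0.0364).

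**Figure D4:**
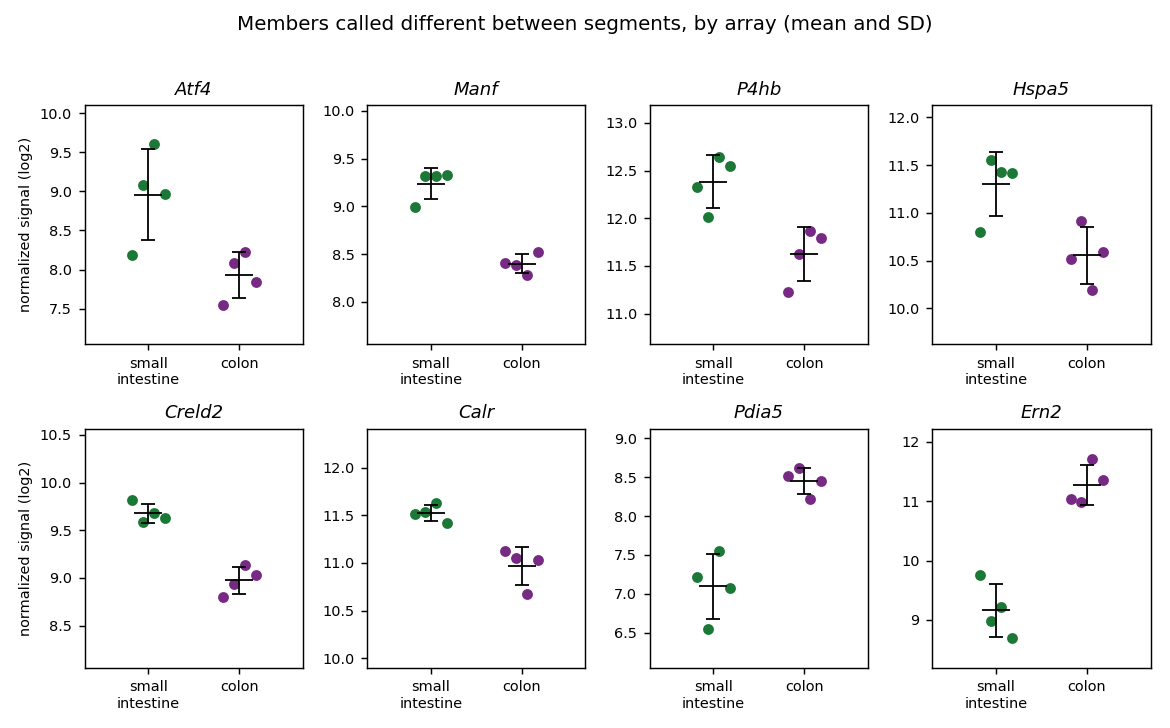
Normalized signal (log2) of the 8 called members, with a point per array and the mean and SD of each segment in black. Each panel has its own axis range, and the values of the segments overlap for Atf4 and Hspa5 only.

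None of the tested degradation genes passed. Of 9 genes, 8 were tested and limma called 0, where it called 22.4% of all tested genes, and 2 had an unadjusted p below 0.05, as did 34.7% of all tested genes. With so few genes, these counts say little about the class. Their differences ran from -0.77 to 0.80 with a median of -0.11. Derl1, a derlin of the export channel, was dim and lower in colon by -0.77 (adjusted p = 0.0608). That value rests on a single probe, since the other probes of Derl1 were above background on no array. Edem3, a mannosidase that marks glycoproteins for destruction, gave 8.86, 7.98, 7.93 and 8.22 in small intestine and 9.08, 8.46, 9.72 and 8.92 in colon (difference 0.80, SE 0.30, adjusted p = 0.0826).

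Sel1l, the adaptor of the ubiquitin ligase, was almost constant in small intestine, at 10.56, 10.54, 10.55 and 10.56. It was lower on all colon arrays, at 10.46, 10.43, 10.25 and 10.14, by -0.23 (SE 0.17, adjusted p = 0.368). Dimmer probes of Sel1l gave -0.45 and -0.51 with overlap, and neither was called (adjusted p = 0.149 and 0.353). Syvn1, the ligase itself, stood at -0.04 and Herpud1, its stress-induced organiser, at -0.04, with 95% confidence intervals of -0.49 to 0.41 and -0.41 to 0.32. Edem1 and Edem2, relatives of Edem3, gave -0.33 and 0.10, and Derl2 gave -0.18. Dimmer probes disagreed in sign with the brightest for Edem2 (-0.65 and -0.02, neither called) and, outside this class, for the BiP partner Dnajb9 (0.13, not called). Of 18 tested genes in a wider degradation list of 21, 1 was higher in colon, Ubxn6 by 0.83 (SE 0.23, adjusted p = 0.0248), and 1 lower, the ligase Marchf6 by -0.95 (SE 0.23, adjusted p = 0.0133).

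None of the tested translocon genes passed either. Of 9 genes, 7 were tested, limma called 0 and 1 had an unadjusted p below 0.05, to be read against the same shares, with differences from -0.31 to 0.60 and a median of 0.02. That gene was Sec62, a channel partner that also receives proteins after translation. It gave 8.52, 8.28, 8.37 and 8.10 in small intestine and 8.84, 8.67, 9.35 and 8.82 in colon, without overlap (difference 0.60, SE 0.20, adjusted p = 0.0603). Sec63, its J-domain partner, stood at 0.12.

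Sec61a1, the pore subunit, stood at -0.29 (SE 0.24). Sec61b, a small subunit of the pore, gave 7.39, 8.13, 8.48 and 8.19 in small intestine and 7.84, 8.85, 5.57 and 8.70 in colon. Colon array 3 stood far below the rest, and both probes of the gene showed it. Without that array, the difference of Sec61b was 0.42 in place of -0.31, and neither passed. Of the translocon-associated complex, Ssr2, Ssr3 and Ssr4 gave -0.22, 0.02 and 0.36 (adjusted p = 0.526, 0.947 and 0.185).

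The steps on either side of the translocon also gave no calls. Of 18 tested genes of signal recognition and signal peptidase, limma called 0, with 3 at an unadjusted p below 0.05 and a median of -0.00045. Of 14 tested genes of N-glycan transfer and trimming, it called 0 as well, with 3 at an unadjusted p below 0.05 and a median of 0.07. Among all tested genes, 22.4% were called and 34.7% had such a p.

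The 8 calls differed in how far they rested on single arrays and settings. Ern2 and Pdia5 were called under every alternative run, 18 and 19 in number, with adjusted p up to 0.0041 and 0.0339. Manf lost its call under 1 of 18, without scaling between arrays (adjusted p = 0.056), and Creld2 under 2 of 19, that one (0.0615) and the omission of colon arrays 1 and 4 together (0.125). P4hb lost its call under 7 of 18, Atf4 under 9, Hspa5 under 11 and Calr under 12, the highest adjusted p being 0.182, 0.222, 0.187 and 0.162. Calr failed without any single array (adjusted p from 0.052 to 0.125). Hspa5 failed without small-intestinal array 2, 3 or 4 (0.101, 0.106 and 0.108) or colon array 1, 3 or 4 (0.087, 0.101 and 0.0826). Atf4 failed without small-intestinal array 2, 3 or 4 (0.0682, 0.08 and 0.0665) or colon array 1 or 4 (0.0797 and 0.0675). P4hb failed without small-intestinal array 3 or 4 (0.0932 and 0.0914) or colon array 1 or 2 (0.0836 and 0.0613). The direction of all 8 was kept under every alternative. Leaving out small-intestinal array 3 or 4 or colon array 1 reduced the members called towards small intestine from 6 to 2, and leaving out small-intestinal array 2 or colon array 4 reduced them to 3. Without small-intestinal array 1, the members called towards colon rose from 2 to 4. Outside the members, the calls of Wfs1, Cebpb, Fkbp2 and Ubxn6 were lost without 5 or 6 of the 8 arrays, taken singly, with adjusted p up to 0.0886, 0.0886, 0.105 and 0.0717. Small-intestinal arrays 1 and 2 and colon array 2 were the ones Wfs1 did not depend on, and for Cebpb these were small-intestinal array 3 and colon array 1. For Fkbp2 and Ubxn6 they were small-intestinal array 1 and colon array 2. The second probe of these genes did not pass either (-0.43, adjusted p = 0.221, and 0.60, adjusted p = 0.053).

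**Figure D5:**
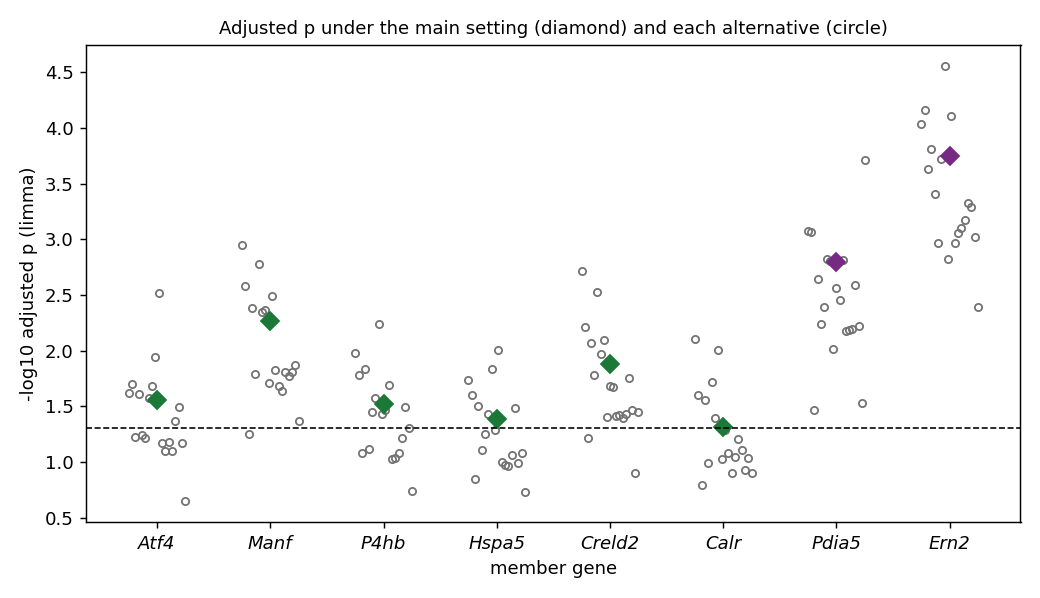
Strength of evidence for the 8 called members, as -log10 of limma's adjusted p (higher is stronger), for the main setting (diamond) and for each alternative (circle). The dashed line marks 0.05, and all circles of Ern2 and Pdia5 lie above it while those of Atf4, P4hb, Hspa5 and Calr straddle it.

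Markers of the labelled cell type were present in both segments, and both they and markers of other cells moved with segment. Of 12 goblet cell markers, 10 had a probe, and all 10 were above background on all colon arrays and 9 on all small-intestinal arrays. Retnlb was not above background in small intestine. Of these 10, 4 were called higher in colon (Spdef by 1.54, Galnt12 by 1.53, Agr2 by 1.33 and Retnlb) and 0 lower. Tff3 alone had a lower mean in colon, without overlap but not called (-0.31, adjusted p = 0.202). The summed signal of the 10, weighted towards the brightest probes, was 31820 to 32724 units in small intestine and 35087 to 41817 in colon, the direction of Ern2 and Pdia5. Colonocyte markers, 5 of 6 with a probe, went the same way, with 4 called and sums of 1913 to 2422 units against 7316 to 10477. The 7 Paneth cell markers with a probe, of 10, were all higher in small intestine, the direction of the 6 member calls towards that segment. Their summed normalized signal was 71375 to 83286 units in small intestine and 2032 to 13339 in colon, highest on colon arrays 1 and 4. The 11 enterocyte markers with a probe, of 14, were all higher in small intestine too, at 42474 to 58044 units against 3843 to 11054, and Fabp1 was not above background in colon. T cell markers, 5 of 7 with a probe, summed to 942 to 1709 units against 178 to 474, with 4 higher in small intestine. Stem cell markers, 3 of 4 with a probe, summed to 3452 to 5081 units against 196 to 390, with Olfm4 called and Lgr5 and Ascl2 not. Of the markers of plasma cells, 7 of 11 had a probe, and the sums were 273 to 364 units in small intestine and 351 to 441 in colon. Mzb1, Irf4 and Tnfrsf17 were not above background on any array. The 1 tested marker of that list, Sdc1, was above background on all colon arrays and higher there (1.54, adjusted p = 0.0142). By contrast, Jchain, Pou2af1 and Prdm1 were above background on some small-intestinal arrays but on no colon array. The colon sum of this list thus rests on Sdc1 and on values at background, and does not show more plasma cell signal there. The part of any of these cell types, goblet cells included, in the member differences was not tested. Without colon arrays 1 and 4, 6 calls towards small intestine became 1, Manf, and the calls towards colon were still Ern2 and Pdia5, with differences of 2.18 and 1.32. The lost calls kept differences of -0.81 (Atf4), -0.75 (Hspa5), -0.66 (Calr), -0.65 (Creld2) and -0.64 (P4hb). Calls over all probes also fell with these 2 arrays left out, from 1580 to 943 towards colon and from 1339 to 805 towards small intestine.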

How the data were processed

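Signals of sorted goblet cells were measured on 8 Illumina arrays, 4 from small intestine and 4 from colon. The deposited table holds the authors' non-normalized signal intensity and detection p-value per probe, per the file headers. A processed intensity table deposited by the authors served as an alternative. In it, the arrays had been shifted down and scaled to a common mean. A single damaged cell, of no member, was restored from it.

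Signals were background-corrected from the detection p-values, given an offset of 16, quantile-normalized and taken to log2 with neqc, and tested with lmFit and eBayes (limma 3.58.1, R 4.3.3). Probes with detection p below 0.05 on at least 4 arrays were tested, with Benjamini-Hochberg adjustment over all 13618 and a threshold of 0.05. Where several probes of a gene were tested, the brightest on average stands for it. Names come from the platform annotation, updated through RefSeq; 23978 of 25697 probes have 1 symbol. All 47 members are described, and other pathway genes are named up to 4 per list and direction. The members and lists were chosen with earlier results of these data known. Raw mean signal ran from 386 to 558 units per array, with 12447 to 13922 probes above background, and 4 arrays a group limit the precision. The fit was tested on simulated data with independent noise and far fewer changed probes than were called here. That run does not measure how reliable the present calls are. Alternatives covered background, offset, scaling, filter, variance trend, replicate number, single arrays and probe choice.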

Additional observations from a re-analysis of the deposited data

Results flagged for a closer look

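Among 76 sets of 4 arrays, 1 per tested member and segment, 2 held an array far from the other 3, where chance alone gives about 1 in 20. Manf, the secreted BiP-binding protein, stood at 8.99 log2 on small-intestinal array 1, below 9.31 to 9.33 on the other small-intestinal arrays and above all colon arrays. Ssr2, the beta subunit of the translocon-associated complex, stood at 9.88 log2 on colon array 1, below 10.52 to 10.61 on the other colon arrays.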

How the results depend on the processing

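No result changed direction while called. Members called higher in colon numbered 2, and 4 without background correction or with an offset of 50; leaving out single arrays gave 2 to 4. Members called higher in small intestine numbered 6, against 0 without scaling between arrays, 2 in the authors' processed values and 1 without colon arrays 1 and 4 together; leaving out single arrays gave 2 to 7. The median of -0.22 became -0.18 without background correction, -0.36 without scaling, -0.29 with cyclic loess and -0.18 without colon arrays 1 and 4; leaving out single arrays gave -0.26 to -0.16. Without scaling, the median of all probes also moved, from 0.02 to -0.19. The causes were not tested. Deviations of same-numbered arrays had correlations from -0.18 to 0.25. With 4 arrays a segment, these cannot tell whether the numbers are a pairing, and the labels do not say. With the replicate number as a block, limma called 2 members towards colon and 4 towards small intestine, with a median of -0.22. Fkbp2 lost its call under that setting (adjusted p = 0.0617). Over single member genes, 633 of 691 comparisons kept their side of the threshold, 42 lost and 16 gained a call. Signal over background limits Ern1, Ero1b, Sec61b and Derl1.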

Other observations

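Sec61b, Ern1 and Ero1b each had their lowest value on colon array 3, at 5.57, 5.15 and 4.91 log2, and each was not above background there. Both probes of Sec61b were low on that array, the dimmer one at 4.81.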
